A study of Mus musculus with 47 samples.

Results

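The comparison asks how the transcriptome of mouse neural cultures changed when the protein SUZ12 was degraded, beyond the change seen when JARID2 was degraded instead. For each gene it is the auxin effect in the SUZ12 line minus the auxin effect in the JARID2 line. Both effects are on the scale of log2(TPM + 0.5), where TPM is the level of a gene corrected for its length and for library depth. The rule takes the 4 groups of neural cultures of these lines, 11 of the 47 libraries of the series.

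The study sequenced polyadenylated RNA of embryonic stem cells (ESC) and of neural progenitor cultures (NPC) made from them, with and without auxin, in C57BL/6 cells. All lines, the untagged control line included, carry Tir1, the plant receptor that marks AID-tagged proteins for degradation when auxin is present. The SUZ12 line is SUZ12-AID and the JARID2 line is AID-JARID2. A further tagged line, MTF2-AID, is part of the series, and its cultures entered the fits described below. The 4 groups were SUZ12 NPC untreated (3 libraries), SUZ12 NPC with auxin (2 libraries), JARID2 NPC untreated (3 libraries) and JARID2 NPC with auxin (3 libraries). Auxin was indole-3-acetic acid at 50 µM for 5 days. The titles of the 6 JARID2 libraries give day 0 where those of the SUZ12 libraries give day 5, while their other labels give neural cultures and 5 days, which were followed here. The cultures received bFGF at 10 ng/ml for 72 hours and then SAG, an agonist of Hedgehog signalling, at 500 nM for 48 hours. The series states biological replicates and gives the SUZ12 group with auxin as the exception with 2; how many clones a line came from is not given in the sources used here.

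Polycomb repressive complex 2 (PRC2) methylates lysine 27 of histone H3 and helps to keep developmental genes silent, mainly at promoters rich in CG dinucleotides. SUZ12 is a core subunit without which the complex falls apart. JARID2 is an accessory subunit of the form called PRC2.2, so that cells without it still hold the core and the other accessory forms. In the neural tube, Hedgehog signalling patterns ventral progenitors, which give rise to motor neurons, while genes of other lineages and of the pluripotent state are held off.

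The 11 libraries held 4.73 to 7.7 M reads, recovered from the steps of low TPM values. Between 13874 and 14728 genes reached 1 TPM, with the highest numbers in both SUZ12 libraries with auxin. All libraries of the series carry the same sequencing run in their labels. In the untagged NPC, auxin for 5 days called 0 of 16469 genes (0.0%) in limma at an adjusted p under 0.05. At an unadjusted p under 0.05 it gave 1180 genes, and voom on the recovered reads called 16.

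The RNA of the tagged genes checks the labels only in part, because the degron acts on the protein. Suz12 stood at 76.5, 79.5 and 77.5 TPM in the untreated SUZ12 line and at 167 and 160 TPM with auxin. In the JARID2 line it stood at 36.6, 39.4 and 31.2 TPM untreated and at 46.9, 31.7 and 41.0 TPM with auxin. The transcript was thus higher in the SUZ12 line already without auxin, and its difference of effects was 0.92 log2 (SE 0.16, adjusted p 0.000112). Jarid2 rose in both lines, from 38.1, 36.3 and 40.4 to 73.0 and 64.9 TPM in the SUZ12 line and from 38.5, 36.3 and 32.0 to 65.0, 53.4 and 51.4 TPM in the JARID2 line. Its difference of 0.18 log2 (95% interval -0.08 to 0.45, adjusted p 0.305) was not called.

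Markers of neural cells were present in the untreated cultures, and auxin moved them further in the SUZ12 line. The 8 progenitor markers (Sox1, Sox2, Sox3, Nes, Pax6, Fabp7, Vim, Hes5) summed to 4380 to 4430 TPM in the untreated SUZ12 line and 1790 to 1800 TPM with auxin. The JARID2 line had 4050 to 4180 TPM untreated and 2930 to 3010 TPM with auxin. The difference was called lower for all 8. The 8 neuronal markers summed to 4360 to 4610 TPM in the untreated SUZ12 line and 408 to 458 TPM with auxin, against 2290 to 2720 and 718 to 794 TPM in the JARID2 line. Their difference was called lower for all 8 as well. In the untagged NPC the neuronal sum was also lower with auxin, at 3810 to 4020 TPM against 4310 to 4710 TPM untreated. Pluripotency markers ran the other way. Pou5f1, Nanog, Zfp42, Esrrb and Klf4 summed to 11 to 16.2 TPM untreated and 533 to 545 TPM with auxin in the SUZ12 line, and to 48.5 to 63.1 and 159 to 176 TPM in the JARID2 line. The untagged NPC held 14.3 to 20.5 TPM of these 5 markers over both treatments, so the untreated JARID2 cultures stood above the untagged ones and the untreated SUZ12 cultures did not. The cultures of the lines therefore differed already without auxin. In bulk RNA, fewer cells of a type and less RNA per cell cannot be told apart, and the part that cell composition plays in each result below was not tested.

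**Figure D1:**
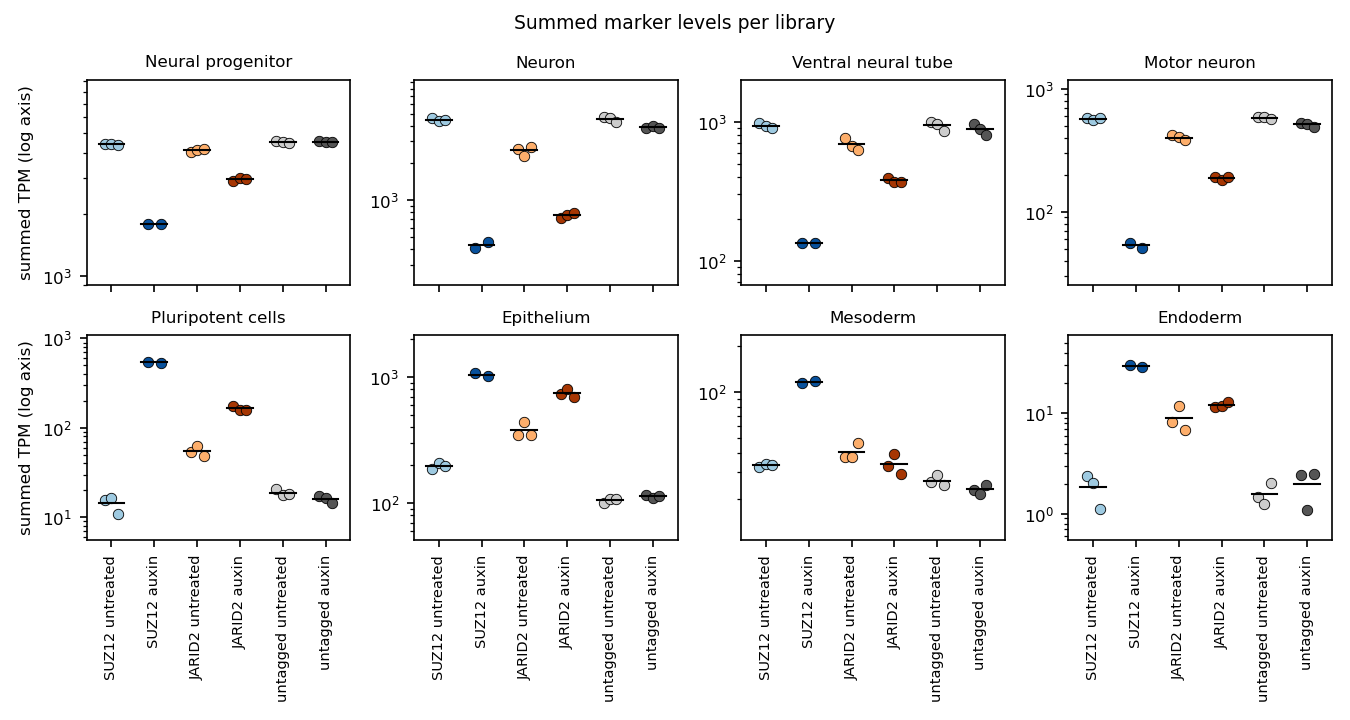
Summed TPM of the marker genes of 8 cell types in each library (points, log axis) with the group mean (bar), for both tagged lines and the untagged line, untreated and with auxin. With auxin the SUZ12 libraries were the lowest for neuronal markers (408 to 458 TPM) and the highest for pluripotency markers (533 to 545 TPM), and the JARID2 libraries lay between them and the untreated groups.

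Auxin changed more genes in the SUZ12 line than in the JARID2 line, and for 5127 of 16469 genes the change differed. These RNA data do not measure how far either protein was depleted. In the SUZ12 line 3931 genes rose with auxin (23.9% of those tested) and 5437 fell (33.0%). In the JARID2 line 1528 rose (9.28%) and 2588 fell (15.7%). The difference of effects was called higher in the SUZ12 line for 2229 genes (13.5%) and lower for 2898 (17.6%). Of these, 1288 were higher by 1 log2 or more (7.82%) and 789 were lower by 1 log2 or more (4.79%). The large differences among the genes tested thus lay more often on the higher side. Genes expressed only in the SUZ12 cultures with auxin pass the filter of 1 TPM in at least 2 NPC libraries through them. Such genes can only lie on the higher side, so this balance is no test. With a filter of 5 TPM the difference was called higher for 1750 and lower for 2776 genes. The median absolute effect was 0.457 log2 in the SUZ12 line and 0.205 log2 in the JARID2 line, beside a median standard error of the difference of 0.184 log2. The balance of directions depended on the scaling. With median-of-ratios scaling, which moved the median SUZ12 effect over all genes from -0.098 to 0.025 log2, the difference was called higher for 2737 and lower for 2448 genes, and voom gave 3357 and 2393. With median-of-ratios scaling the SUZ12 effect was higher for 5033 and lower for 4299 genes, and the JARID2 effect higher for 2223 and lower for 2195. With voom these counts were 5466 and 4494 for the SUZ12 effect and 2233 and 2392 for the JARID2 effect.

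Most genes called in the JARID2 line were also called in the SUZ12 line, in the same direction. The groups behind both effects share no library. Of the genes that rose in the JARID2 line, 83.3% also rose in the SUZ12 line, which is 1273 genes and 32.4% of those that rose there. Of the genes that fell, 85.6% of the JARID2 calls were shared, which is 2215 genes and 40.7% of the SUZ12 calls. The difference itself uses the same libraries, so its split only describes where it came from. Among the 2229 higher genes, 1403 rose in the SUZ12 line with no call in the JARID2 line, 640 rose in both and 56 moved in opposite directions. Among the 2898 lower genes, 1484 fell in the SUZ12 line with no call in the JARID2 line, 1298 fell in both and 36 moved in opposite directions.

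**Figure D2:**
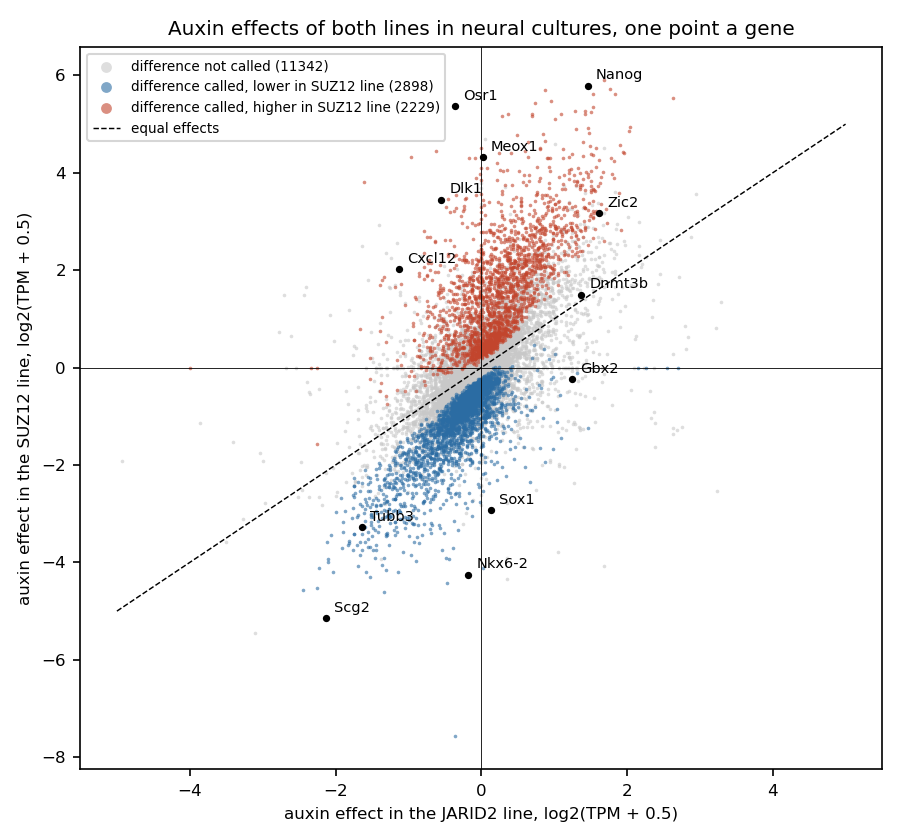
Auxin effect of each gene in the SUZ12 line (vertical axis) against that in the JARID2 line (horizontal axis), both on the log2(TPM + 0.5) scale, coloured by the test of the difference. The 2229 genes called higher lie above the dashed line of equal effects and the 2898 called lower lie below it.

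The untreated lines differed too, for 4326 of 16469 genes (26.3%). For 741 of the genes with a higher difference the untreated SUZ12 line stood below the untreated JARID2 line, and for 1316 of those with a lower difference it stood above. These are shared libraries with opposite sign, which produces such counts in part by construction. For 1400 of the higher and 1430 of the lower genes the untreated lines did not differ at the threshold. When the auxin groups alone were compared, a comparison added after the data were seen, 3156 genes were higher in the SUZ12 line (19.2%) and 3128 lower (19%). It called 1680 of the 2229 higher genes the same way, left 501 uncalled and called 48 the other way. Of the 2898 lower genes, 2011 were called the same way, 854 were not called and 33 were called the other way. Genes of the last kinds are pointed out below.

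Upstream sequences of the leading genes are shown to let the reader see how unlike they are in CG content, the feature of PRC2-bound promoters named above. They come from RefSeq (GRCm38.p6), run 5′ to 3′ from 250 bases before the RefSeq start to that start or to the first annotated exon before it, and have each CG in capitals. Shown are the 3 genes with the largest positive and the gene with the largest negative difference among those with such a window.
Rpl10l, chr12:66284402-66284651, minus strand: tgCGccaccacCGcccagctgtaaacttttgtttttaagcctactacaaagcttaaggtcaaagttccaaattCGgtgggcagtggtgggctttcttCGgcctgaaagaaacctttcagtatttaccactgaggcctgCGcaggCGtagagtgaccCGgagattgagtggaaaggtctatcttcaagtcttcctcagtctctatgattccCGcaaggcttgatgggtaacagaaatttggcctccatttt
Klf2, chr8:72318812-72319032, plus strand: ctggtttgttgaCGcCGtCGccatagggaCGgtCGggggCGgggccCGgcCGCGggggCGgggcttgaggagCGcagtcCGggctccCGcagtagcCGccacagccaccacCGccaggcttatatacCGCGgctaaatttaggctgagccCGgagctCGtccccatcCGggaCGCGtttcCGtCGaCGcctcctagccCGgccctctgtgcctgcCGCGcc
Nanog, chr6:122707239-122707488, plus strand: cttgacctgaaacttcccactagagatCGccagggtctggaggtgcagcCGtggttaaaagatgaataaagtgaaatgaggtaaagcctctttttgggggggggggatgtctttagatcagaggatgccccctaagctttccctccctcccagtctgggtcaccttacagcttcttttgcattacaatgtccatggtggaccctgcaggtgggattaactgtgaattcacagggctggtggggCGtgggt
Nkx6-2, chr7:139582798-139583047, minus strand: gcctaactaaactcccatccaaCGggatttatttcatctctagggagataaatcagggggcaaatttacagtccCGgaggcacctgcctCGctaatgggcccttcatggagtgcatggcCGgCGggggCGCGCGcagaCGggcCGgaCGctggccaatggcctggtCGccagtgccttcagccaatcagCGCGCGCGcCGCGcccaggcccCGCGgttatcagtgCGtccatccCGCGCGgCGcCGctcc

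Counted on the printed bases, the Rpl10l window holds 8 CG, a number reached over the same stretch by 43.4% of 27025 promoters and by 78.3% of the 11741 that belong to genes tested. The Klf2 window holds 28 CG in 221 bases, reached by 4.4% of all and 8.27% of tested genes' promoters. The Nanog window holds 3, reached by 70.4% and 93.8%. Nkx6-2, the gene with the largest negative difference, has 26 CG, reached by 9.25% and 17.6%. CG reads the same on both strands. High and low CG counts both occurred among genes with a large positive difference. A promoter entry was found for 71.3% of the genes tested, too few to compare CG content between gene sets.

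Osr1, Lgals7, Smoc2, Hapln1 and Rpl10l had the largest positive differences among the genes eligible to be named, and none of them passed 4.6 TPM in an untreated library. Osr1, which encodes a transcription factor of intermediate mesoderm (chromosome 12, 9570116 to 9581500, GRCm38, as are all gene positions given), was at 0.505, 0.581 and 1.22 TPM in the untreated SUZ12 line and at 55.1 and 46.2 TPM with auxin. In the JARID2 line it was at 1.85, 2.86 and 2.91 TPM untreated and at 2.28, 2.79 and 0.887 TPM with auxin. The SUZ12 libraries with auxin stood apart from all other libraries, and the difference was 5.73 log2 (SE 0.59, adjusted p 1.64e-07). Lgals7, a galectin of stratified epithelia, was at 20.8 and 18.8 TPM in the SUZ12 line with auxin and at no more than 1.49 TPM in any other library (difference 5.07 log2, SE 0.85). Smoc2, a secreted matricellular protein, reached 25.2 and 23.6 TPM, and Hapln1, a link protein that holds hyaluronan and proteoglycans together, 25.3 and 23.3 TPM. The other libraries held at most 2.48 TPM of Smoc2 and 0.791 TPM of Hapln1. Rpl10l, a retrogene copy of the ribosomal protein gene Rpl10, rose from 0.662, 0.38 and 1.03 to 61.5 and 58.6 TPM in the SUZ12 line. In the JARID2 line it went from 1.21, 4.6 and 2.86 to 5.83, 4.49 and 5.23 TPM, which did not pass the test (adjusted p 0.11). Reads of Rpl10l can be shared with Rpl10, so its level is uncertain.

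Most posterior Hox genes were below 1 TPM without auxin, and 16 of those tested rose with SUZ12 loss, while in the JARID2 line 2 rose and 2 fell. Hox genes encode the transcription factors that give cells their position along the body axis, and the high paralogue numbers mark caudal levels. Of 27 genes of paralogue groups 5 to 13, 17 passed the filter of 1 TPM in at least 2 NPC libraries. The difference was called higher for 16 of these 17 and lower for none, with a median of 2.78 log2 beside -0.06 log2 over all genes tested. A gene expressed only in the SUZ12 cultures with auxin passes that filter through them, so the count describes those genes and is no test. The 10 members below the filter stayed at 1.91 TPM or less. All 27 genes together summed to 10.7, 10.9 and 10.6 TPM in the untreated SUZ12 line and to 123 and 120 TPM with auxin. The JARID2 line held 19.8, 15.6 and 18.9 TPM untreated and 18.5, 16.7 and 16.1 TPM with auxin.

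Among them, Hoxd9 was listed at 0, 0 and 0.167 TPM in the untreated SUZ12 line and rose to 11.3 and 9.58 TPM. It stood at 0.394 to 0.929 TPM in all 6 JARID2 libraries, and its difference was 4.40 log2 (SE 0.47, adjusted p 3.3e-07). Hoxc13 and Hoxb9 were listed at 0 in all untreated SUZ12 libraries, and with auxin at 9.59 and 9.17 TPM and at 13.6 and 10.6 TPM. In the JARID2 line with auxin the highest values were 0.367 TPM for Hoxc13 and 0.567 TPM for Hoxb9. A fold change cannot be read from these genes, since their fitted differences of 4.47 and 4.0 log2 depend on the pseudocount. Hoxd8 rose from 0.313, 0.541 and 0.65 to 11 and 9.82 TPM in the SUZ12 line, while the JARID2 line had 1.45 to 2.1 TPM untreated and 0.849 to 1.89 TPM with auxin.

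Of 12 anterior Hox genes, groups 1 to 4, the difference was called higher for 2 (16.7%) and lower for 3 (25.0%), near the 13.5% and 17.6% over all genes tested. Hoxa2, a hindbrain gene, fell from 47.3, 42.1 and 43.9 to 8.68 and 7.83 TPM in the SUZ12 line. It was at 53.3, 41.8 and 33.2 TPM untreated and 46.2, 41.4 and 48.8 TPM with auxin in the JARID2 line (difference -2.47 log2, SE 0.18, adjusted p 1.42e-09). Hoxb4 fell in both lines, by 0.90 log2 in the SUZ12 line and by 1.02 log2 in the JARID2 line, and its difference of 0.13 log2 (95% interval -0.18 to 0.44) was not called.

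**Figure D3:**
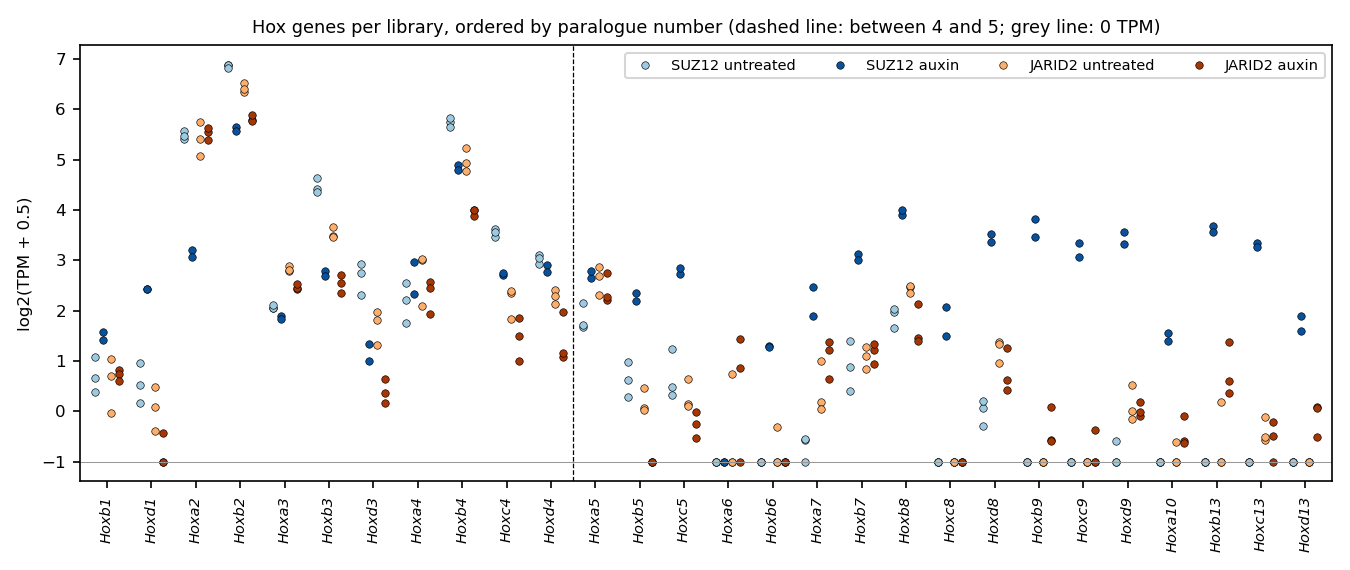
Level of the tested Hox genes reported here in the 11 libraries on the log2(TPM + 0.5) scale, ordered by paralogue number, with groups 1 to 4 left and groups 5 to 13 right of the dashed line. Right of the line the SUZ12 libraries with auxin lie above the other groups for most genes, with Hoxa6 the gene without a call, and left of it the order of the groups varies from gene to gene.

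Transcription factors of mesoderm, of the dorsal neural tube and of other germ layers were among the genes that rose with SUZ12 loss. In the mesoderm list 25 of 32 tested genes rose in the SUZ12 line and 3 in the JARID2 line, and in the dorsal list 17 and 7 of 24. Of 42 mesoderm and 29 dorsal genes the others were below the filter, which genes expressed only in the SUZ12 cultures with auxin pass through those libraries. As for the Hox genes, the counts of this and the other lists describe the members that passed and are no test. A shorter set of 5 mesoderm markers had 3 tested genes, with 1 higher and 0 lower in the difference. T and Mesp1, factors of early mesoderm, were below the filter. In the SUZ12 line T was at most 0.724 TPM untreated and 0.783 TPM with auxin, and Mesp1 0.314 and 0 TPM. Meox2 and Tcf21, also below the filter, reached 1.77 and 4.13 TPM there with auxin, against at most 0.288 and 0 TPM untreated. The mesoderm list had 25 of 32 tested genes with a higher and 2 with a lower difference, with a median effect of 2.03 log2 in the SUZ12 line and -0.05 log2 in the JARID2 line. Meox1, a factor of somites, rose from 7.36, 4.05 and 6.36 to 125 and 124 TPM in the SUZ12 line. It stayed at 8.05, 8.28 and 9.28 TPM untreated and 9.34, 9.02 and 7.68 TPM with auxin in the JARID2 line (difference 4.30 log2, SE 0.23, adjusted p 1.01e-11). Hand2, a factor of heart and limb mesoderm, rose from 1.06, 1.57 and 1.57 to 29.3 and 34.2 TPM, and all JARID2 libraries held 2.29 to 3.39 TPM. Twist1, a factor of mesenchyme and cranial neural crest, rose in the SUZ12 line to 95.1 and 101 TPM and fell in the JARID2 line from 32.5, 34.0 and 42.8 to 22.5, 29.5 and 21.6 TPM. Isl1, which is in the mesoderm list as a heart factor and is also a motor neuron gene, was 1 of the 2 members with a lower difference (-1.99 log2, SE 0.09).

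Dorsal neural and neural crest factors gave 18 higher and 1 lower of 24 tested, with a median difference of 1.63 log2. Zic1, a dorsal neural tube factor, rose to 20.4 and 19.1 TPM in the SUZ12 line and from 2.12, 1.57 and 1.55 to 3.48, 3.79 and 2.84 TPM in the JARID2 line. Zic2 had a positive difference of 1.57 log2 (SE 0.27) but not a higher end level, at 35.5 and 34.4 TPM in the SUZ12 line and 45.1, 37.7 and 31.4 TPM in the JARID2 line with auxin. Its untreated levels were 2.48 to 4.68 TPM and 10.9 to 13.2 TPM. The wider list of forebrain and midbrain regulators split into 7 higher and 3 lower of 20 tested.

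For endoderm, 13 of 21 tested genes were higher (61.9%) and 1 was lower (4.76%), beside 13.5% and 17.6% over all genes tested. Gata6, a factor of primitive and definitive endoderm, rose from 0.204, 0.235 and 0.106 to 13.6 and 14.3 TPM in the SUZ12 line, while the JARID2 line held 1.62 to 2.84 TPM untreated and 1.39 to 4.18 TPM with auxin. Endoderm markers stayed low in sum, with 29.1 to 29.9 TPM at most. Trophectoderm genes gave 9 higher and 0 lower of 13, a count that fell to 7 without either SUZ12 library with auxin. Tfap2c, which also marks germ cells and surface ectoderm, rose to 67.0 and 69.8 TPM in the SUZ12 line and from 14.9, 15.3 and 13.1 to 32.5, 31.0 and 27.6 TPM in the JARID2 line. Endothelial and blood genes gave 6 higher and 0 lower of 15, among them Pecam1, an adhesion molecule of endothelium that naive stem cells also express, at 32.1 and 33.5 TPM against 9.17 to 11 TPM with auxin.

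Genes of the naive pluripotent state rose in both lines, and more in the SUZ12 line. Of 20 tested, 19 had a higher and 1 a lower difference, with a median effect of 4.30 log2 in the SUZ12 line and 1.17 log2 in the JARID2 line. The JARID2 effect was called higher for 13 of them. Nanog, a core pluripotency factor, rose from 1.1, 2.78 and 1.25 to 116 and 115 TPM in the SUZ12 line and from 9.26, 10.9 and 9.51 to 29.5, 26.6 and 27.8 TPM in the JARID2 line. The groups did not overlap in either line, and the difference was 4.33 log2 (SE 0.31, adjusted p 9.07e-10). Klf2, a factor of naive stem cells, rose from 2.42, 3.86 and 4.06 to 178 and 166 TPM and from 12.3, 10.9 and 9.67 to 22.5, 21.7 and 20.9 TPM (difference 4.52 log2, SE 0.23, adjusted p 3e-12). Dppa3, which protects methylation in the early embryo and marks naive cells and germ cells, reached 84.0 and 87.7 TPM against 17.9, 18.7 and 22.9 TPM. Tdh, the threonine dehydrogenase on which mouse stem cells depend, reached 76.0 and 84.0 TPM against 6.25 to 9.51 TPM. Neither Dppa3 nor Tdh passed the test in the JARID2 line, with adjusted p values of 0.0854 and 0.132. Untreated JARID2 cultures were already above untreated SUZ12 cultures for all 4, for Dppa3 at 9.09 to 14.3 against 0.827 to 2.85 TPM, so the difference of effects exceeds the difference between the end levels (2.09 log2 for Dppa3 and 2.03 log2 for Nanog).

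General pluripotency and the formative state, the step between naive cells and germ layers, divided into genes that differed and genes that did not. Of 15 general pluripotency genes, 13 rose in each line, and the difference was called higher for 8 and lower for 3. Pou5f1 (Oct4) rose from 8.21, 8.63 and 6.81 to 344 and 339 TPM in the SUZ12 line and from 33.8, 39.1 and 30.4 to 105, 99.1 and 97.1 TPM in the JARID2 line (difference 3.82 log2, SE 0.16, adjusted p 1.19e-13). Sox2, which neural progenitors share with stem cells, fell from 362, 365 and 352 to 197 and 203 TPM in the SUZ12 line and stayed at 307 to 351 TPM in all JARID2 libraries. Of 16 formative genes, 11 rose in the SUZ12 line and 12 in the JARID2 line. Dnmt3b, a de novo DNA methyltransferase, rose from 11.7, 13.7 and 11.6 to 34.8 and 37.1 TPM and from 23.2, 22.9 and 22.6 to 67.1, 61.7 and 51.9 TPM. The difference of 0.13 log2 (95% interval -0.16 to 0.43) was not called, while the level with auxin differed by -0.73 log2, lower in the SUZ12 line. Fgf5 and Otx2, the usual markers of the primed epiblast, rose in both lines and their differences of -0.08 and -0.28 log2 were not called. The intervals of these low genes were wide, -1.10 to 0.94 and -1.10 to 0.54 log2. The end level of Otx2 was 1.38 and 1.28 TPM in the SUZ12 line and 5.36, 4.68 and 5.04 TPM in the JARID2 line.

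Gbx2 and Pou3f1 rose only in the JARID2 line, and the difference passed the test for both. Gbx2, a factor of naive cells and of the anterior hindbrain, was the member of the naive list with a lower difference (-1.48 log2, SE 0.23, adjusted p 4.61e-05). It went from 11.9, 12.8 and 11.7 to 25.2, 32.0 and 31.1 TPM in the JARID2 line and from 9.07, 10.1 and 10.1 to 11 and 6.02 TPM in the SUZ12 line. Pou3f1 (Oct6), of formative and neural cells, went from 10.6, 9.02 and 6.97 to 23.3, 22.2 and 21.5 TPM in the JARID2 line and from 11.1, 8.66 and 11.9 to 10.2 and 9.12 TPM in the SUZ12 line (difference -1.42 log2, SE 0.31, adjusted p 0.0016). These genes were looked at after their values were seen.

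Germ line genes rose in the SUZ12 line for 27 of 31 tested. Of the 31 tested, 24 had a higher and 0 a lower difference (18 higher with a pseudocount of 0.1), and the JARID2 effect was called higher for 10. Stra8, which licenses entry into meiosis, rose from 4.13, 5.4 and 3.89 to 198 and 185 TPM in the SUZ12 line and from 12.1, 16.5 and 14.6 to 36.4, 32.9 and 38.4 TPM in the JARID2 line (difference 3.99 log2, SE 0.29, adjusted p 1.16e-09). Dazl, an RNA-binding protein of germ cells, was at 17.1 and 16.3 TPM with SUZ12 loss and at no more than 1.71 TPM in any JARID2 library. Sohlh2, a factor of early germ cell differentiation, was present without auxin, at 33.8 to 35.3 TPM in the SUZ12 line, and rose to 181 and 176 TPM. Of 6 two-cell-like genes tested, 3 Zscan4 copies were called higher. These near-identical copies share reads, and the count was 0 without SUZ12 auxin replicate 3 and 2 without replicate 2.

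**Figure D4:**
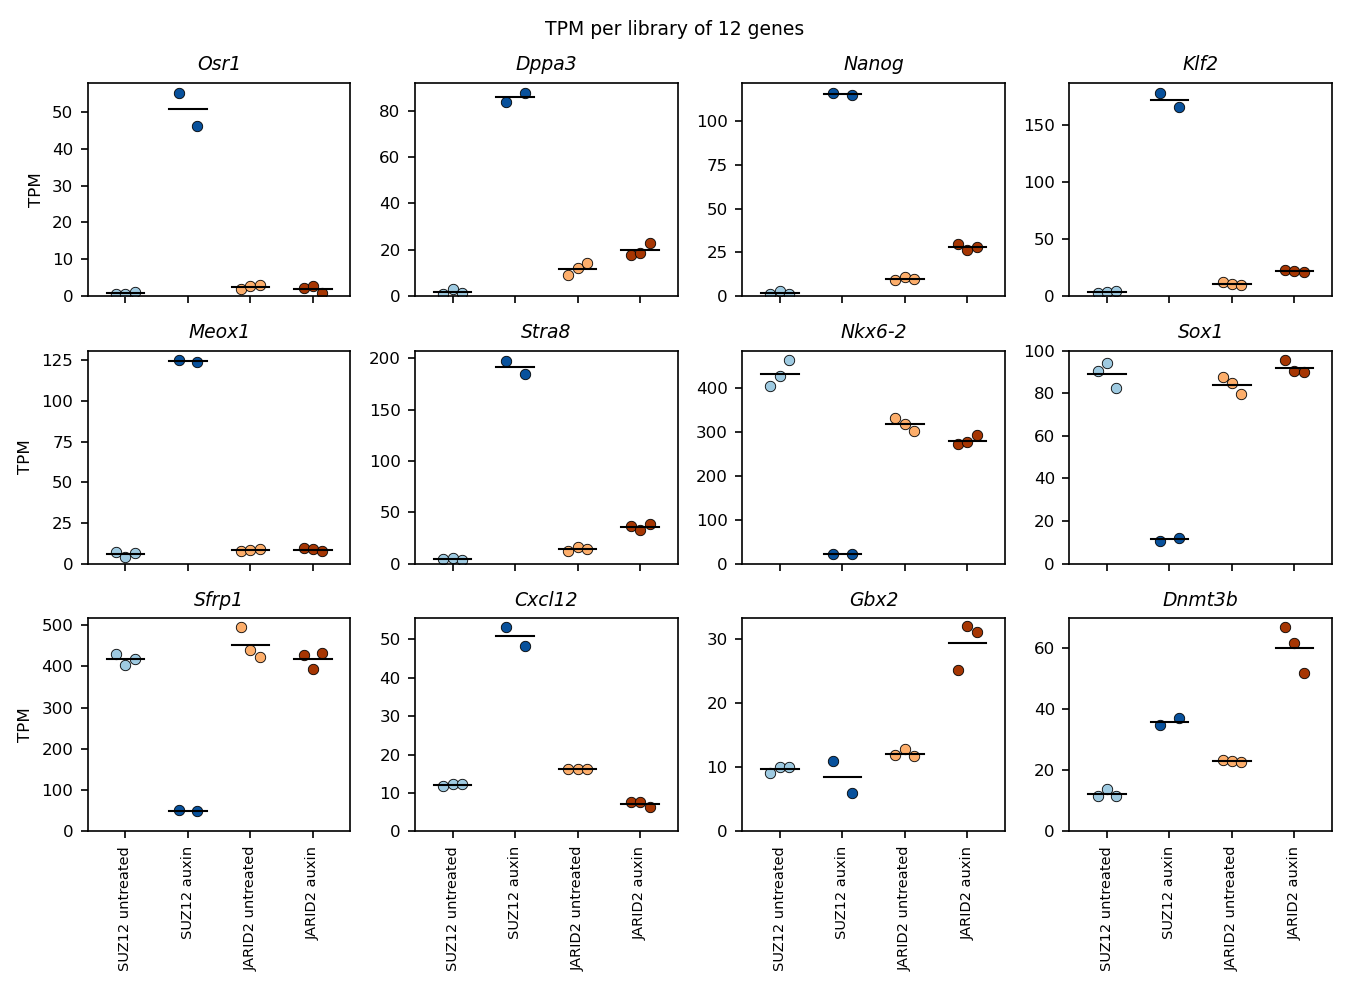
TPM of 12 genes in each of the 11 libraries (points) with the group mean (bar), on a linear axis from 0. Osr1 and Meox1 were high in the SUZ12 libraries with auxin alone, Nkx6-2, Sox1 and Sfrp1 were low in those alone, Gbx2 was high in the JARID2 libraries with auxin, and Dnmt3b was raised in both lines.

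Genes of the ventral and other neural lists below fell further in the SUZ12 line and, motor neuron factors apart, in larger number. Of 16 ventral genes tested, 14 fell there and 7 fell and 3 rose in the JARID2 line. Ventral neural tube progenitor genes had 0 higher and 12 lower of 16 tested, with a median difference of -1.34 log2. Nkx6-2, a homeodomain factor of ventral progenitors, fell from 404, 428 and 463 to 22.1 and 22.4 TPM in the SUZ12 line. In the JARID2 line it went from 331, 317 and 303 to 272, 277 and 292 TPM, which did not pass the test (adjusted p 0.0578). The difference of -4.07 log2 (SE 0.10, adjusted p 4.8e-17) was the largest negative one among the genes eligible to be named. Nkx2-9, expressed next to the floor plate, fell from 373, 328 and 340 to 45.9 and 46.7 TPM, and in the JARID2 line from 400, 381 and 376 to 325, 353 and 338 TPM. Nkx6-1 and Nkx2-2 fell in both lines. Nkx6-1 ended at 47 and 48.0 TPM with SUZ12 loss and 201, 178 and 178 TPM with JARID2 loss, and Nkx2-2 at 5.97 and 7.02 against 33.2, 28.2 and 31.2 TPM. Olig2, which specifies motor neuron progenitors, ended at 13.2 and 14.7 TPM and 14.5, 14.0 and 15.9 TPM. Its negative difference of -0.76 log2 went with a higher untreated level in the SUZ12 line.

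Genes of the Hedgehog pathway itself divided. Of 16 tested, 3 were higher (18.8%) and 7 lower (43.8%), beside 13.5% and 17.6% over all genes tested. The lower count was 4 with median-of-ratios scaling, and it was also smaller without SUZ12 auxin replicate 3. Ptch1, the receptor and a direct target of the pathway, fell from 197, 199 and 195 to 102 and 100 TPM in the SUZ12 line and held 199 to 227 TPM in all JARID2 libraries (difference -0.91 log2, SE 0.10, adjusted p 4.85e-07). Shh, the ligand, fell in both lines, to 14.0 and 16.5 TPM with SUZ12 loss and to 55.5, 58.0 and 64.5 TPM with JARID2 loss. Gli3, mainly a repressor, and Cdon, a co-receptor, had positive differences of 1.24 and 1.35 log2. With auxin Cdon stood at 14.6 and 13.7 TPM against 14.1, 13.1 and 13.4 TPM, so its difference lay in the untreated levels of 4.08 to 4.74 and 11.2 to 12.0 TPM.

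Of 24 pan-neural progenitor genes, 23 fell and 1 rose in the SUZ12 line, and 17 fell and 2 rose in the JARID2 line. Of the 24 progenitor markers, 22 had a lower and 1 a higher difference, with median effects of -1.93 log2 in the SUZ12 line and -0.47 log2 in the JARID2 line. Sox1, an early and specific marker of the neural lineage, fell from 90.6, 94.1 and 82.5 to 10.7 and 12.0 TPM in the SUZ12 line. It held 79.6 to 95.8 TPM over all 6 libraries of the JARID2 line (difference -3.05 log2, SE 0.13, adjusted p 3.28e-13). Sfrp1, a secreted WNT antagonist, fell from 431, 403 and 419 to 51.8 and 48.5 TPM, while the JARID2 line held 393 to 495 TPM throughout. For both genes the untreated lines did not differ at the threshold. Nes, the intermediate filament of neural stem cells, fell in both lines, to 77.9 and 81.6 TPM and to 202, 184 and 196 TPM. Sox2ot, a long noncoding RNA whose locus spans Sox2, fell from 26.1, 25.4 and 22.7 to 1.26 and 1.11 TPM and from 21.0, 17.8 and 17.4 to 14.0, 12.9 and 12.8 TPM. Nkx1-1, a homeodomain factor, and Neurog2, a proneural factor, also had differences below -3 log2 (-3.50 and -3.30). The untreated lines differed for both, by 2.97 and 1.44 log2. Nkx1-1 was at 6.91, 7.35 and 7.16 TPM in the untreated SUZ12 line and listed at 0 with auxin, so its fitted difference depends on the pseudocount, and the auxin groups alone did not differ at the threshold (adjusted p 0.245).

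Notch signalling, which keeps progenitors from differentiating, had 0 higher and 14 lower (66.7%) of 21 tested, beside 17.6% lower over all genes tested. Its target Hes5 fell from 151, 157 and 135 to 5.84 and 5.31 TPM in the SUZ12 line and from 72.0, 46.8 and 48.8 to 22.9, 20.2 and 21.4 TPM in the JARID2 line (difference -3.28 log2, SE 0.17, adjusted p 4.71e-12). The ligand Dll1 fell to 9.11 and 13.1 TPM against 45.0, 44.7 and 44.1 TPM. Lfng and Mfng, glycosyltransferases that tune the receptor, fell in both lines as well, with differences of -3.09 and -2.17 log2. Proneural factors gave 0 higher and 14 lower (93.3%) of 15 tested. Insm1, a zinc finger factor of newborn neurons, ended at 7.85 and 8.59 TPM with SUZ12 loss and at 42.8, 48.0 and 49.0 TPM with JARID2 loss.

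Of 15 motor neuron factors tested, 11 fell and 2 rose in the SUZ12 line, and 13 fell and 1 rose in the JARID2 line. The median effects were -2.94 and -1.34 log2. The difference was called higher for 1 and lower for 11. Isl1, which specifies motor neurons, ended at 14.3 and 13.2 TPM with SUZ12 loss and at 32.1, 32.6 and 36.6 TPM with JARID2 loss. Mnx1 (Hb9), a motor neuron factor also expressed in pancreas and notochord, was the exception. It rose from 5.81, 5.61 and 6.27 to 13.2 and 11.6 TPM in the SUZ12 line, and its difference of 0.94 log2 (adjusted p 0.0317) was lost in 9 of 20 alternative settings.

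Neuronal genes fell steeply in both lines. Of 30 pan-neuronal genes, 29 fell in the SUZ12 line and 27 in the JARID2 line, with median effects of -2.85 and -1.42 log2, and 28 had a lower difference. Tubb3, neuronal beta-tubulin, fell from 2020, 1960 and 2060 to 192 and 222 TPM and from 1290, 1200 and 1450 to 377, 444 and 445 TPM (difference -1.65 log2, SE 0.10, adjusted p 8.92e-11). Stmn2, a regulator of microtubules in axons, fell to 42.9 and 43.4 TPM against 81.4, 73.0 and 85.3 TPM. For these genes the untreated JARID2 cultures stood below the untreated SUZ12 cultures, so the end levels differed by less than the effects, for Tubb3 by 1.03 log2 and for Stmn2 by 0.88 log2. Nsg2, a vesicle protein of neurons, was unlike them, with 53.9, 52.8 and 61.0 TPM under JARID2 loss and 58.7 to 65.9 TPM untreated, and a fall to 13.4 and 14.6 TPM in the SUZ12 line. Synaptic genes had 0 higher and 9 lower (60.0%) of 15 tested. Axon guidance genes had 5 higher (19.2%) and 15 lower (57.7%) of 26, beside 13.5% and 17.6% over all genes tested.

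**Figure D5:**
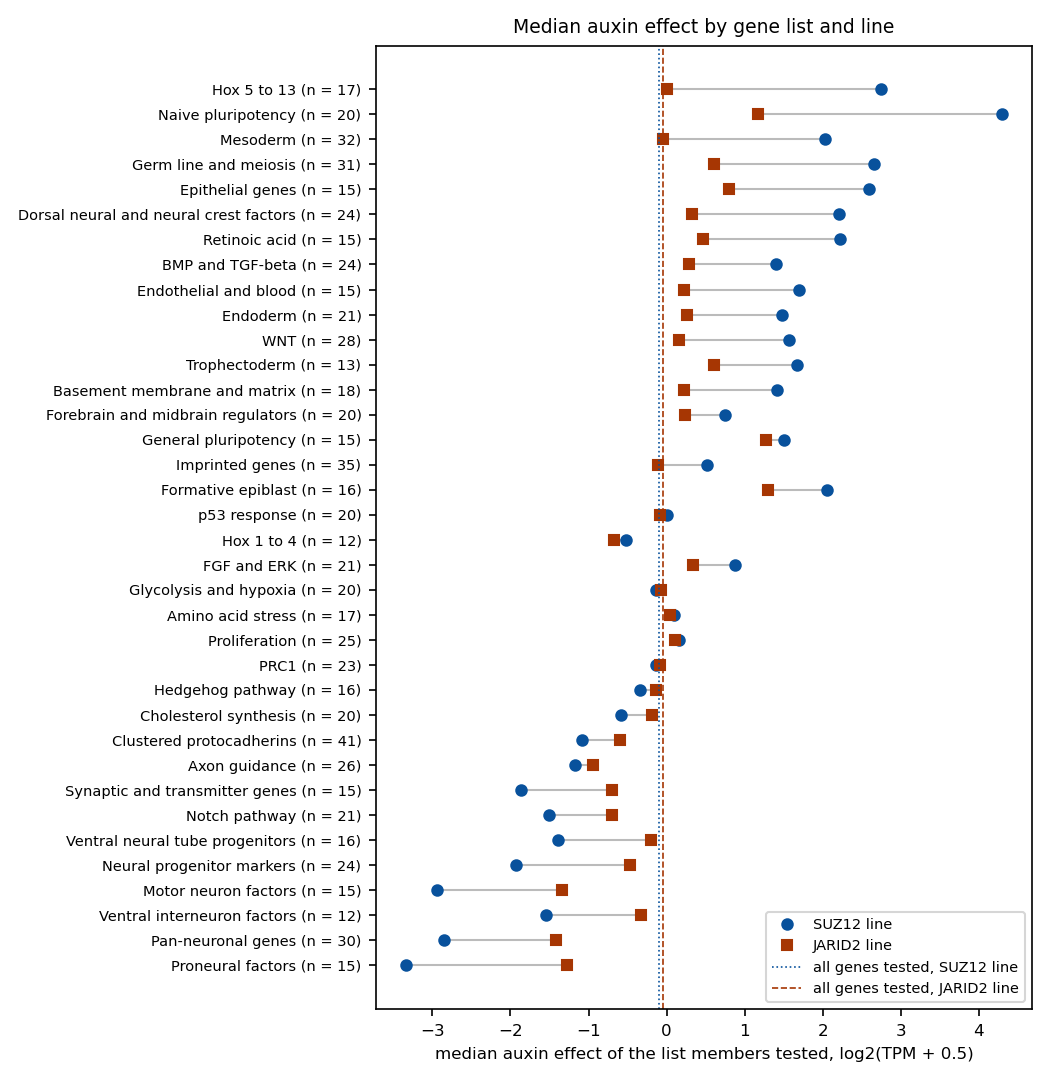
Median auxin effect over the tested members of each gene list with at least 10 tested, in the SUZ12 line (circles) and the JARID2 line (squares), on the log2(TPM + 0.5) scale, ordered by the median difference. Vertical lines mark the medians over all genes tested (-0.10 and -0.04 log2), and posterior Hox and mesoderm genes show a raised SUZ12 median beside a JARID2 median near 0.

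Epithelial and matrix genes rose in the SUZ12 line for 15 of 15 and 16 of 18 tested, and in the JARID2 line for 11 and 6. Epithelial genes gave 14 higher and 0 lower of 15 tested in the difference. Krt18, a keratin of simple epithelia, rose from 83.6, 99.0 and 101 to 542 and 488 TPM in the SUZ12 line and from 176, 226 and 170 to 344, 387 and 330 TPM in the JARID2 line (difference 1.55 log2, SE 0.16, adjusted p 1.51e-07). Cdh1 (E-cadherin) had a positive difference of 1.63 log2 (SE 0.19) but ended at 72.8 and 68.4 TPM in the SUZ12 line and at 96.2, 91.9 and 82.6 TPM in the JARID2 line. Its untreated levels were 6.49 to 8.43 and 28.7 to 38.8 TPM. Basement membrane and matrix genes gave 15 higher and 0 lower of 18. Col3a1, a fibrillar collagen, rose to 49.8 and 52.9 TPM in the SUZ12 line and fell from 8.69, 10.9 and 9.55 to 4.53, 4.77 and 3.53 TPM in the JARID2 line.

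In the BMP and TGF-beta list 17 of 24 genes were higher and 2 lower, and 13 were higher without SUZ12 auxin replicate 2. Bmp4, a ligand that dorsalises the neural tube, rose from 2.51, 1.87 and 1.23 to 48.3 and 42.4 TPM and from 3.97, 4.79 and 4.05 to 8.22, 10.7 and 6.63 TPM (difference 3.41 log2, SE 0.32, adjusted p 5.02e-08). Nodal and its antagonist Lefty2, both of the early embryo, reached 19.9 and 21.3 TPM and 29.3 and 33.4 TPM in the SUZ12 line with auxin, against at most 6.6 and 3.96 TPM in JARID2 libraries. In the WNT list 15 of 28 genes were higher (53.6%) and 3 lower (10.7%), beside 13.5% and 17.6% over all genes tested. The targets Sp5 and Notum reached 19.5 and 18.7 TPM and 7.0 and 7.45 TPM with SUZ12 loss, and Wnt7a, a ligand of the ventricular zone, fell to 2.62 and 3.69 TPM. For retinoic acid, 11 of 15 genes were higher (73.3%) and 3 lower (20.0%). The 2 most abundant, the binding proteins Crabp1 and Crabp2, fell in the SUZ12 line, Crabp1 from 3450, 3530 and 3730 to 1690 and 1960 TPM. Neither passed the test in the JARID2 line, where Crabp1 held 3880 to 4520 TPM. The FGF and ERK list gave 8 higher (38.1%) and 3 lower (14.3%) of 21, with a median difference of 0.08 log2. Its lower share is near that over all genes tested.

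Genes of PRC2 and PRC1 subunits changed by smaller amounts. Of 6 PRC2 core genes, Suz12 had a higher and the methyltransferases Ezh1 and Ezh2 a lower difference, of -0.48 and -0.34 log2. Ezh2 fell from 161, 164 and 148 to 119 and 118 TPM in the SUZ12 line and held 142 to 173 TPM in the JARID2 libraries. Among accessory genes Phf19, a subunit of PRC2.1 that is high in stem cells, rose in both lines, to 30.0 and 28.5 TPM and to 22.3, 16.6 and 15.6 TPM (difference 1.05 log2, SE 0.24, adjusted p 0.00176). PRC1 genes gave 4 higher and 4 lower of 23 (17.4% each), near the 13.5% and 17.6% over all genes tested. The sign of their median, -0.01 log2, turned with median-of-ratios scaling (0.08) and with voom (0.09). Cbx7, a chromodomain subunit, fell in the SUZ12 line only, from 137, 131 and 124 to 76.8 and 69.2 TPM, with a difference of -0.91 log2 (SE 0.12).

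Of 7 cell-cycle inhibitors, the difference was called higher for 3 (42.9%) and lower for 2 (28.6%), beside 13.5% and 17.6% over all genes tested. Cdkn2b, p15, was at 13.8, 13.4 and 14.9 TPM untreated and at 44.3 and 27.1 TPM with auxin in the SUZ12 line, and at 10.4 to 18 TPM in the JARID2 libraries. Its difference of 1.33 log2 (SE 0.34, adjusted p 0.00596) was not called without SUZ12 auxin replicate 2 (0.98 log2, adjusted p 0.0612). Cdkn2a stood at 125, 139 and 137 TPM untreated and 167 and 175 TPM with auxin in the SUZ12 line, and at 135, 138 and 163 TPM untreated and 134 to 136 TPM with auxin in the JARID2 line (difference 0.46 log2, SE 0.12, adjusted p 0.00598). Cdkn1b, p27, fell from 60.6, 62.8 and 64.9 to 29.4 and 31.0 TPM in the SUZ12 line with a difference of -0.77 log2. Proliferation genes gave 6 higher (24%) and 3 lower (12%) of 25, beside 13.5% and 17.6% over all genes tested, with a median difference of 0.03 log2. Imprinted genes went both ways, 17 higher (48.6%) and 8 lower (22.9%) of 35. H19, a noncoding RNA of the Igf2 locus, rose from 331, 354 and 338 to 2240 and 2200 TPM and from 396, 449 and 382 to 1060, 1030 and 929 TPM. Nnat, a neuronal imprinted gene, fell from 1340, 1280 and 1280 to 196 and 210 TPM and from 895, 788 and 841 to 433, 424 and 444 TPM. Cholesterol synthesis genes gave 0 higher and 15 lower of 20, with a small median of -0.42 log2. Hmgcs1, an early enzyme of the pathway, fell from 552, 511 and 552 to 222 and 230 TPM and from 510, 506 and 488 to 412, 409 and 450 TPM.

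A small set of genes moved in opposite directions in the lines. Eligible to be named were 4167 genes called in the difference with a mean of 5 TPM or more in any of the 4 groups. Of these, 86 had both effects called with opposite signs. Over all 5127 genes called in the difference, 56 of the higher (1.09%) and 36 of the lower (0.702%) did. The 6 with the largest difference all rose with SUZ12 loss and fell with JARID2 loss. Dlk1, an imprinted ligand related to Notch ligands, rose from 21.3, 19.4 and 25.5 to 258 and 230 TPM and fell from 14.1, 14.7 and 14.0 to 10.1, 10.8 and 8.15 TPM (difference 3.99 log2, SE 0.25, adjusted p 8.86e-11). Cxcl12, a chemokine, rose from 11.8, 12.3 and 12.2 to 53.2 and 48.4 TPM and fell from 16.1 TPM in each of 3 libraries to 7.55, 7.49 and 6.29 TPM. Foxd1, a forkhead factor of kidney stroma and forebrain, rose from 11.4, 6.33 and 10.8 to 33.0 and 29.3 TPM and fell from 4.87, 5.94 and 5.15 to 1.49, 1.87 and 1.81 TPM. For Dlk1, Cxcl12 and Foxd1 alike no library of a line's auxin group overlapped its untreated group. These genes were picked because both effects were called, so this describes the values and is no test. The others were Pcolce, an enhancer of procollagen processing, Pdgfc, a growth factor, and Hoxb8, with JARID2 effects of -0.37, -0.63 and -0.78 log2.

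Many changes did not differ between the lines at this precision. Both effects were called in the same direction without a call of the difference for 1539 genes, 630 of which rose and 909 fell. For 1188 of them the 95% interval of the difference lay within 1 log2 in either direction, and for the rest the interval reached beyond 1 log2. Sall4 and Trim71, regulators of stem cells, were among them, with differences of 0.17 log2 (95% interval -0.09 to 0.43) and -0.19 log2 (-0.49 to 0.11).

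In ESC, where auxin lasted 12 hours and the libraries are others, the same contrast called 21 of 15104 genes (0.139%), 18 higher and 3 lower. The count varied with the setting, from 0 genes when only the groups compared were fitted and 1 with either replicate block to 110 with voom. It was 3 without SUZ12 ESC untreated replicate 1, 19 and 21 with pseudocounts of 0.1 and 1, and 25 with a filter of 5 TPM. Of the genes with a higher difference in NPC, 6 were also called higher in ESC, and of those with a lower difference 0 were also called lower. The times and cell states differ, so the values stand side by side and are not compared. Nanog had an ESC difference of 0.02 log2, Klf2 of 0.07 log2 and Pou5f1 of -0.14 log2, none of them called.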

How the data were processed

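Polyadenylated RNA was sequenced from strand-specific dUTP libraries, per the labels' protocols. The authors deposited 1 table of TPM per gene and library. STAR 2.6.1d and the mm10 build are named in the submitters' processing notes. For the counting tool and gene models, the version is not given in the sources used here.

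For the 23 NPC libraries, log2(TPM + 0.5) was fitted in limma 3.58.1 (R 4.3.3, trend and robust variance) with 1 mean per group of 8. Besides the SUZ12 and JARID2 lines, these were the untagged and MTF2-AID NPC, untreated and with auxin. All of them entered the shared estimate of the spread and the filter. A gene was tested if 2 or more libraries reached 1 TPM, and a call is a two-sided Benjamini-Hochberg adjusted p under 0.05 over all of them. The scale understates changes of low genes. ESC were fitted apart, over 24 libraries. The fit was tested on simulated data. Where replicates are separate samples but no culture is named, p-values measure the spread between these samples.

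Genes were named by a rule: Suz12 and Jarid2, the 12 largest differences in each direction at 5 TPM or more, up to 4 members of each list by smallest p, the 6 largest opposite effects, and cell type markers. A few others were chosen after their values were seen: Hoxb4, Zic2, Gbx2, Pou3f1, Dnmt3b, Fgf5, Otx2, Sall4, Trim71, Cdh1 and further list members given as examples. The members and lists were chosen with earlier results of these data known. Promoter windows were trimmed at annotated exons (GENCODE, GRCm38), with 200 bases or more left, which departs from the planned rule. Alternatives were pseudocounts of 0.1 and 1, no filter or 5 TPM, median-of-ratios scaling, voom on recovered reads, replicate blocks, only the groups compared, leaving out each library, and, chosen after seeing the data, the auxin groups alone. A few genes are not reported here.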

Additional observations from a re-analysis of the deposited data

Results flagged for a closer look

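The auxin effect differed between the SUZ12 and JARID2 lines for 5127 genes, by the test of the difference itself. Among genes with called effects of opposite sign, the same test gave differences of 3.99 log2 for Dlk1, 3.58 log2 for Pcolce, 3.22 log2 for Pdgfc, 3.15 log2 for Cxcl12, 3.09 log2 for Foxd1 and 2.84 log2 for Hoxb8. No group had enough libraries for a test of single outlying samples.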

How the results depend on the processing

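The count of 5127 genes for the difference ranged from 4473 to 6284 over the other settings, the latter with the auxin groups alone, and from 3940 to 5146 when each replicate was left out in turn. The same ranges were 7762 to 10606 and 7875 to 8843 for the SUZ12 effect, 2896 to 4625 and 3293 to 3731 for the JARID2 effect, and 4011 to 5283 and 3297 to 4124 for the untreated lines. Of 200 named genes 191 were called, and 175 stayed called in the same direction in each of 20 settings that tested them. The auxin groups alone are not among these 20. In ESC the count of 21 became 110 with voom, 1 with either replicate block, 0 with only the groups compared, and 3 to 21 without 1 replicate. For auxin in untagged NPC the count of 0 became 1 without a filter, 16 with voom, 4 with only the groups compared and 0 to 2 without 1 replicate; the cause was not tested. Same-numbered libraries did not deviate together (correlations from -0.033 to 0.085), so the numbers do not pair them; the replicate block gave 4473 genes with library-name numbers and 4758 with title numbers. Leaving out a SUZ12 library with auxin leaves 1, which is assumed to vary like the other groups. Depth of 4.73 to 7.7 M reads limits genes near 1 TPM.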

Other observations

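Mir218-2, a microRNA gene inside Slit3 and chosen after its values were seen, was at 92.3, 95.5 and 95.7 TPM in the untreated SUZ12 line and listed at 0 in both libraries with auxin. The JARID2 line held 45.1, 33.2 and 48.8 TPM untreated and 50.0, 27.9 and 24.3 TPM with auxin. Few reads stand behind this, 87 over the untreated SUZ12 group and 24 over the JARID2 group with auxin, and they come from precursor or host RNA, not the mature form. Slit3, a secreted axon guidance ligand, went from 159, 153 and 152 to 41.1 and 41.4 TPM and from 132, 129 and 138 to 71.3, 64.8 and 65.6 TPM. The mature sequence from RefSeq (GRCm38.p6, chr11:35616840-35616860, plus strand) is shown to identify the microRNA, with its seed, bases 2 to 8, in capitals.
mmu-miR-218-5p: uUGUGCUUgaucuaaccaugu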
